A study of Homo sapiens with 6 samples.

Results

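The 41 genes described here encode DEAD-box (DDX) and DEAH-box (DHX) RNA helicases. They were taken as a named list from the family, and the binding sites of USP39 in them were collected. The list leaves out the paralogs DDX17 and DDX5 and other members, some with sites and some with none, which are given further below. A site was counted for a gene if its central base lay within the gene's span, on the strand that held most of the gene's sites, and outside the small nucleolar RNA genes named SNORD and SNORA. By this rule the helicase genes held 289 of the 34781 sites in the list, or 0.831%. USP39 belongs to the tri-snRNP, in which the U4, U6 and U5 snRNAs travel together to the assembling spliceosome. Its RNA contacts were mapped by iCLIP2, in which UV light fixes a protein to the RNA it touches and the ends of the cDNAs mark the place. All 6 libraries came from HEK293T, an established human embryonic kidney cell line, labelled as wild type (WT), irradiated at 254 nm and precipitated with an antibody against USP39. There were 3 replicates of the high membrane region and 3 of the low membrane region, which are slices of the blot above the size of the protein.

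The values below come from 1 merged list of sites, each 5 nt wide; which libraries entered it is not given in the sources used here. Every site has a score of 0, so the list ranks no site. Neither the reads under a site nor their spread over replicates is known, so values carry no replicate error, and the membrane regions were not compared. The number of sites depends on how much of an RNA is present, and RNA abundance was not measured, nor was the control without UV light analysed. No difference between genes or roles below was tested, and all comparisons are descriptions of this list. A gene with 0 sites may still have had reads below the limit of the site caller.

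DEAD-box and DEAH-box proteins use ATP to unwind RNA or to strip proteins from it, and nearly every step in the life of an RNA has its own. DEAH-box enzymes drive the rearrangements of the spliceosome, DEAD-box enzymes of the nucleolus help fold and cut ribosomal RNA, and others act in nuclear export, in the start of translation and in mRNA decay. The question here is which of the RNAs that encode these enzymes carried USP39 sites and where along the gene they lay.

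Of the 41 helicase genes 25 had at least 1 site (61.0%, 95% Wilson interval 45.7% to 74.3%, counting error only). Among all 20056 protein-coding genes, counted by the same rule, the share was 23.0%. The helicase genes were chosen with earlier results of these data known, so the interval does not test a difference from that share. At least 3 sites were found in 15 of the 41 genes, against 12.7% of all protein-coding genes. At least 10 were found in 6 of the 41 genes, against 4.55% of all protein-coding genes. The median over helicase genes that had a site was 3, the same as over all protein-coding genes with a site. The sites were concentrated in few genes. DDX39B, DDX3X and DHX9 together held 177 sites, or 61.2% of those in the helicase genes, and the 6 genes with 10 or more held 230. The other 19 genes with a site held 59 sites, and 6 of these genes had 1 each. Within the spans 0 sites lay on the opposite strand. For 22 genes with a site the promoter table gives a strand, and in all 22 it was the strand of the sites. Over all protein-coding genes with a site and such an entry the strand matched in 94.4%.

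**Figure D1:**
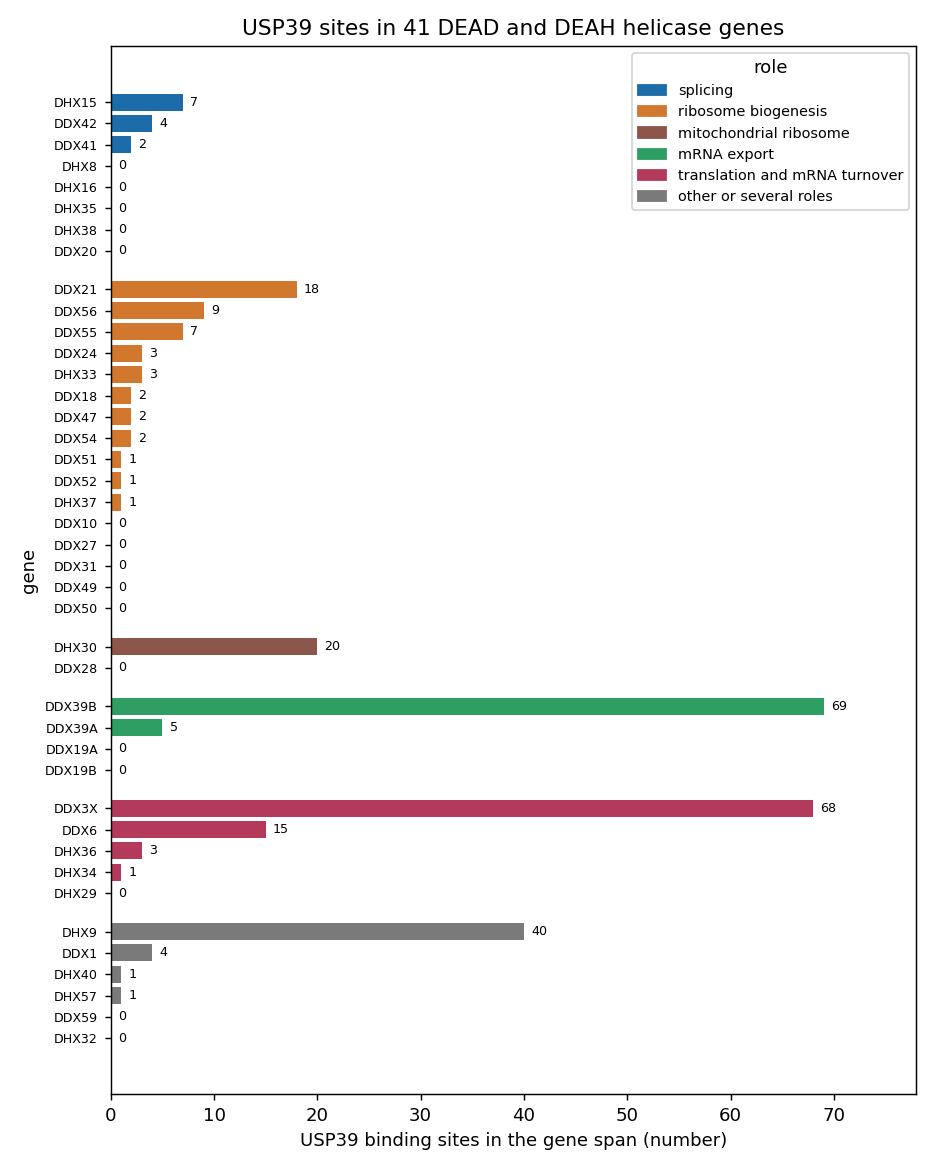
USP39 sites (number, horizontal axis) in each of the 41 helicase genes (vertical axis), grouped and coloured by the role of the protein; bars are counts in the merged list, with the count printed beside each bar. DDX39B with 69, DDX3X with 68 and DHX9 with 40 stand above all others, and 16 genes have 0.

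The sequences under sites could be read only at gene starts, where a reference sequence was at hand. They are shown as the sites of these genes whose bases could be read, and sites away from the starts are not represented by them. In 4 helicase genes 6 sites lay within the window of 250 bases before to 50 bases after an annotated start. The lines give RefSeq reference sequence (GRCh38.p14) on the strand of the gene, 5′ to 3′, with the 5 bases of the site in capitals and up to 12 bases on each side, fewer where the window ends. T stands for U in the RNA.
DDX39B, site chr6:31542003-31542007, minus strand: aaccggaagtgaAGGCAgatttccctcct
DDX39B, site chr6:31541978-31541982, minus strand: tccttcgtcgctGTTGCtgccgccatacg
DDX39B, site chr6:31541954-31541958, minus strand: atacgcgctctcCCTGT
DDX21, site chr10:68956169-68956173, plus strand: ggtggggaactaCCTCTtcctctccacgc
DDX3X, site chrX:41334159-41334163, plus strand: cgcgcggtgcgcTCCAGagccgcagttct
DHX9, site chr1:182839389-182839393, plus strand: ctgtgcgtttctCTGTTgtc
The central base was T in 3 of these 6 sites, G in 2 and C in 1, and 5 of the 6 sites contained a T. Across the whole list, 733 sites in such windows could be read with 10 bases on each side, and the central base was T in 64.9% of them. T made up 21.3% of all bases of the windows and 20.2% of their first 50 transcribed bases. The 3 helicase sites without a central T were the DDX39B site at the start itself, the DDX3X site and the DHX9 site.

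Several of these sites were centred within 2 nt of an annotated start, on either side of it. The DDX21 site was centred on base 2 of the gene. The DDX3X site was centred 1 nt before an annotated start that lies inside the gene's span. The first of the DDX39B sites was centred 2 nt before the annotated start, so that its last base is the first base of the gene. Since its centre lies before the span, it is not among the 69 sites of the gene. The other DDX39B sites were centred on bases 24 and 48, and the DHX9 site on base 45. Such positions were common in the list as a whole. Of the sites in the windows 214 were centred within 2 nt of an annotated start, 125 of them exactly 2 nt before it. The central base was T in 42.4% of the 210 sites at starts that could be read, and in 74.6% of the 268 centred 10 to 39 nt after the start.

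**Figure D2:**
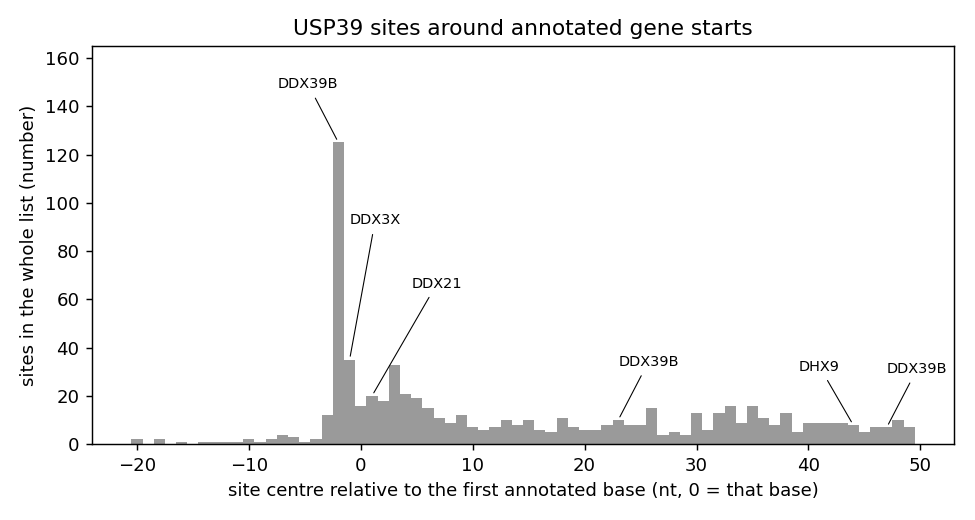
Number of sites in the whole list (vertical axis) by the distance of the site centre from the nearest annotated start (nt, horizontal axis; 0 is the first annotated base), with the 6 helicase sites named. The tallest bar, 125 sites, is at 2 nt before the start and contains a DDX39B site.

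Of the 8 genes grouped here under splicing, 3 had a site (37.5%), beside 23.0% of all protein-coding genes. They held 13 sites in all or 0.0437 per kb of gene, 2 of the 8 had at least 3 sites, and 0 of 8 reached 10, beside 12.7% and 4.55% of all protein-coding genes. Each gene was put under 1 role only, and DDX39B, which also acts in splicing, is given with the export helicases. DHX15, which takes the spliceosome apart after splicing, had 7 sites in 57.1 kb. One lay on chr4:24584428-24584432, centred on base 125 of the gene, and the other 6 lay past the midpoint, with 35527 nt free of sites between. DDX42, which binds the U2 snRNP, had 4 sites, of which 3 lay between chr17:63798557 and 63800459 and the last was centred 547 nt from the end of the gene. DDX41, a helicase found in late spliceosomes, had 2 sites 255 nt apart on chromosome 5. The 5 genes with 0 sites were DHX16, DHX8 and DHX38, whose products activate the spliceosome, release the mRNA and remodel the spliceosome between its catalytic steps, as well as DHX35, found in catalytic spliceosomes, and DDX20, a component of the SMN complex that assembles snRNPs. Their spans ran from 12.1 kb in DDX20 to 77.4 kb in DHX35.

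Among the helicases of ribosome biogenesis 11 of 16 genes had a site, 49 sites in all or 0.0705 per kb. The share of genes with a site was thus 68.8%, against 37.5% (3 of 8 genes) for the splicing group as listed and 23.0% of all protein-coding genes. With at least 3 sites required, 5 of 16 genes counted, against 2 of 8 in the splicing group and 12.7% of all protein-coding genes. The contrast between the 2 groups thus rests on genes with 1 or 2 sites. It also depends on which genes were listed. Spliceosomal helicases outside the 41 genes are not in the splicing group: SNRNP200 had 21 sites, DDX46 8, DDX23 3 and AQR 0. DDX21, a nucleolar helicase that acts in rRNA transcription and processing, had 18 sites between chr10:68956169 and 68984945. Besides the site at its start, 10 lay scattered through the body of the gene and 7 in its last 10%, the nearest centred 126 nt from the end. DDX56, another nucleolar helicase, had 9 sites in only 8.105 kb, or 1.11 per kb, and 8 of them lay in the first 60% of the gene. DDX55, which works on the large subunit, had 7 sites, of which 6 lay in the first 40% and the last one, chr12:123616704-123616708, lay just before the small nucleolar RNA gene SNORA9B. DHX33 had 3 sites, all in the last 10% of its gene, the last of them 61 nt from its end, and DDX47 had 2, also both in the last 10%. DDX24 had 3 sites, spread over the gene at 5.65%, 62.9% and 91.4% of its length. DDX18 and DDX54 had 2 each, and DDX51, DDX52 and DHX37 had 1 each. The 5 without a site were DDX10, DDX27, DDX31, DDX49 and DDX50. DDX10, the longest of the 41 genes at 275.9 kb, was among them, as was DDX49 at 8.916 kb.

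Helicases of the mitochondrial ribosome were represented by DHX30 and DDX28. DHX30 had 20 sites in 47.1 kb, between chr3:47805412 and 47849222. One lay near the start, none followed for 21391 nt, and 19 of the 20 lay past the midpoint, 10 of them in the last 10%. DDX28, the shortest of the 41 genes at 2.317 kb, had 0.

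Of the 4 export helicase genes 2 had a site, beside 23.0% of all protein-coding genes. Together the 4 export genes had 0.784 sites per kb, the highest density of the roles compared, and 69 of their 74 sites were in DDX39B. DDX39B (UAP56) helps the U2 snRNP join the early spliceosome and acts in the export complex TREX. It had 69 sites in 11.8 kb, or 5.86 per kb, and 39 of the 913 protein-coding genes with 10 or more sites were denser. By number of sites it ranked 30 among all protein-coding genes. Its sites covered the gene from end to end, from base 24 to 39 nt before its end, with a median distance of 93 nt between neighbours. The longest stretch without a site was 1821 nt, between bases 3219 and 5040. The densest 1000 nt, from base 7782 to 8769, held 16 sites or 23.2%. Past the midpoint lay 49 of the 69 sites, and a neighbour within 50 nt was found for 43. The closest pairs abut, with centres 5 nt apart. The read-through locus ATP6V1G2-DDX39B spans the whole gene, and its RNA could not be told apart from that of DDX39B. DDX39A, the close paralog of DDX39B, had 5 sites in 10.6 kb, or 0.472 per kb, all past the midpoint of the gene. They lay between chr19:14409345 and 14413192, and the last was centred 550 nt from the gene's end. DDX19A and DDX19B, which release mRNA at the cytoplasmic face of the nuclear pore, had 0 each. These are neighbouring, near-identical genes, and reads that match both could have been lost or split in mapping, so their 0 is uncertain.

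Of the 5 helicases of translation and mRNA turnover 4 had a site, beside 23.0% of all protein-coding genes. They held 87 sites in all or 0.410 per kb. DDX3X, which helps ribosomes onto structured mRNAs, had 68 sites, or 2.18 per kb, and ranked 32 among all protein-coding genes. Its sites ran without a long break from chrX:41334159 to 41350131, with a median distance of 134 nt, and the longest stretch between them was 1787 nt. After the last site, 46.0% of the gene's span held none. Over the 913 protein-coding genes with 10 or more sites the median of that share was 1.94%, and in 39 of them the share was larger than in DDX3X. The span in the gene table covers all annotated transcripts, and where the transcripts present in these cells end was not known here. DDX6, which represses translation and promotes decapping in P-bodies, had 15 sites with another layout. Of these 13 lay in the last 10% of the gene, between chr11:118748166 and 118751862, and 2 lay 18 nt apart near its beginning, with 34478 nt free of sites between. Among the 913 genes 11 had a higher share of sites in their last 10% than DDX6, whose share was 86.7%. DHX36, which unwinds G-quadruplexes, had 3 sites, at 61.3%, 76.2% and 93.1% of its length, and DHX34, an enzyme of nonsense-mediated decay, had 1. DHX29, which helps the small subunit scan structured leaders, had 0 in 51.6 kb.

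The last 6 genes have other roles, several roles or none that is settled. DHX9 (RNA helicase A), a nuclear enzyme that resolves duplexes formed by inverted repeats, had 40 sites in 48.6 kb, or 0.822 per kb, between chr1:182839389 and 182887506. They were spread along the gene, 5 in its first 10% and 7 in its last 10%, with a median distance of 583 nt and a longest free stretch of 9268 nt. The 2 nearest the start lie within the span of DHX9-AS1 as well. DDX1, a subunit of the tRNA ligase complex, had 4 sites, 2 of them in the last 10% of the gene at chr2:15628528-15628532 and chr2:15628810-15628814. DHX40 and DHX57 had 1 each, and DDX59 and DHX32 had 0.

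**Figure D3:**
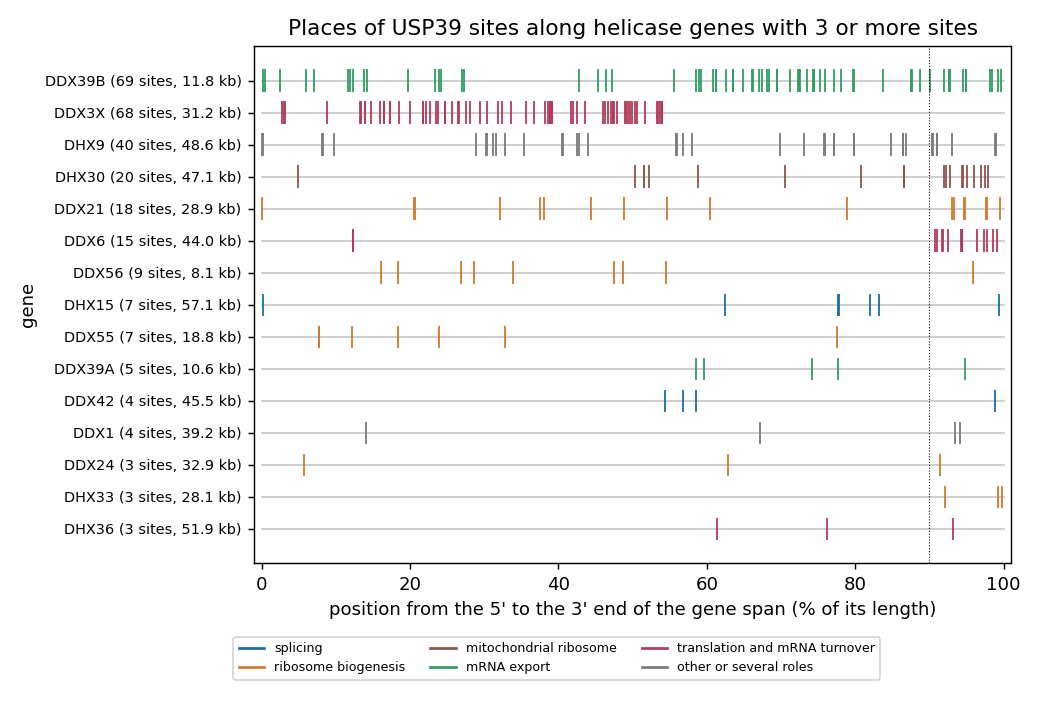
Places of the sites (vertical ticks) along the 15 helicase genes with 3 or more sites, from the 5′ to the 3′ end of each span (% of its length, horizontal axis), coloured by role; the dotted line marks 90%. DDX39B is covered throughout apart from a gap of 1821 nt, DDX3X has no site in the last 46.0% of its span, and 13 of the 15 DDX6 sites lie right of the line.

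Gene length did not order the counts among the helicases. DDX39B and DDX3X, with 69 and 68 sites, span 11.8 kb and 31.2 kb, while DHX57 with 1 site spans 78.2 kb and DDX10 with 0 spans 275.9 kb. The median span of the 41 genes was 32916 nt, against 24092.5 nt for all protein-coding genes. Where runs of sites no more than 50 nt apart were joined to 1, the helicase genes held 235 sites in place of 289, and DDX39B changed places with DDX3X, at 44 joined sites against 54 in DDX3X.

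**Figure D4:**
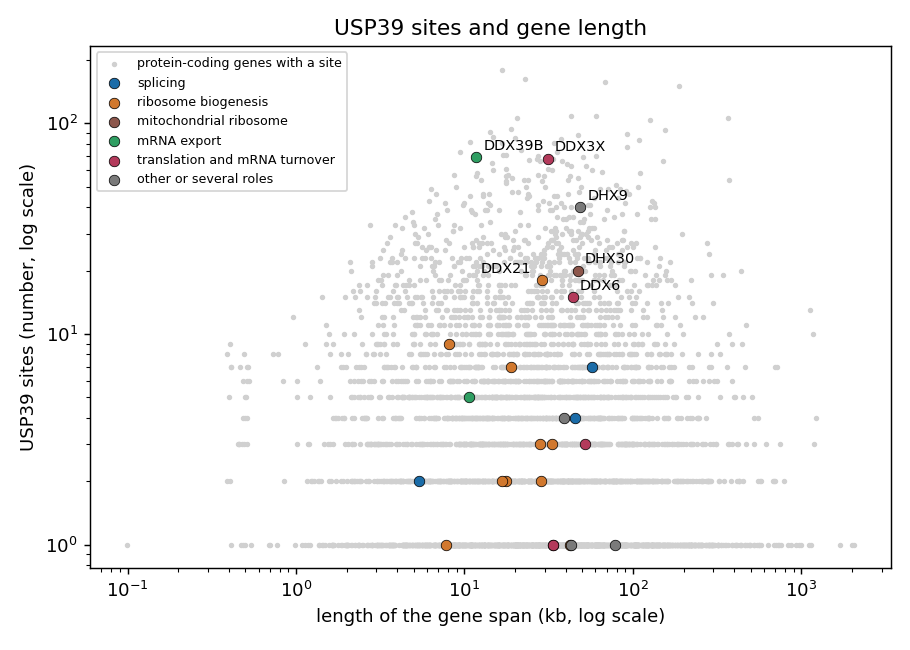
Sites per gene (number, log scale, vertical axis) against the length of the gene span (kb, log scale, horizontal axis); grey points are protein-coding genes with a site and coloured points are the 25 helicase genes with a site, by role. DDX39B and DDX3X lie near the upper edge of the grey cloud, and helicases with 1 to 3 sites cover the same range of lengths.

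Positions along the gene were pooled over the helicase genes. In the 15 genes with 3 or more sites, 60 of 275 sites (21.8%) lay in the last 10% of the span, against 24.0% of 29601 sites in the other 2526 protein-coding genes with 3 or more. In the last 5% of the span the helicase share was 8.73%, against 15.1% over all protein-coding genes with 3 or more. In the last 10%, single genes ranged from 0 of 68 in DDX3X and 0 of 7 in DDX55 to 3 of 3 in DHX33. Leaving out DDX3X, the share in the last 10% was 29.0%. The first 10% held 7.27% of helicase sites and 10.96% in the other genes. In the 10% before the last, 13 helicase sites or 4.73% were found, against 11.7% in the other genes, and DDX3X, which has no site past 54.0% of its span, lowers both late shares. Another site of the gene within 50 nt was present for 99 of the 275 sites (36.0%), against 35.4% in the other genes. Of these 99 sites 43 were in DDX39B and 27 in DDX3X, and without DDX39B the share was 27.2%.

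**Figure D5:**
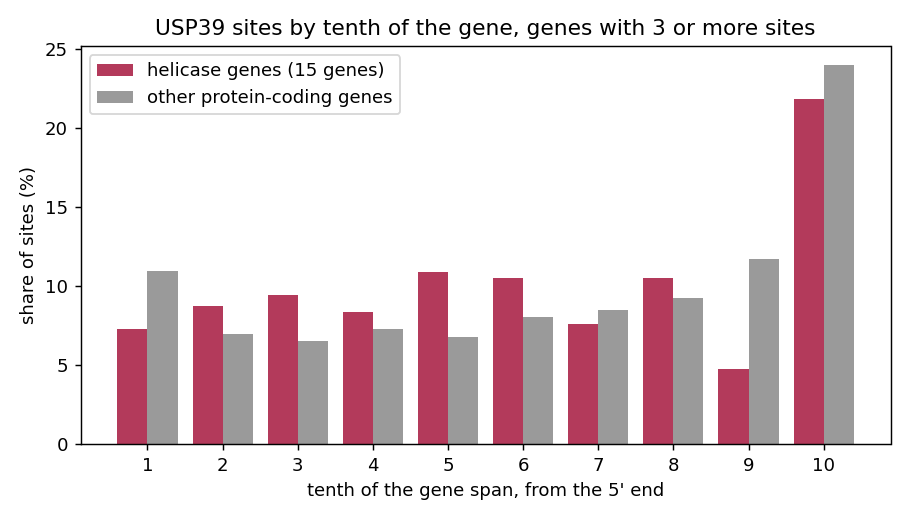
Share of sites (%, vertical axis) by equal parts of the gene span from 5′ to 3′ (10 parts, horizontal axis) in the 15 helicase genes and in the other 2526 protein-coding genes, all with 3 or more sites. The last part holds 21.8% in the helicase genes and 24.0% in the others, and the part before it 4.73% and 11.7%.

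DDX19A and DDX19B had 0 sites each, while the other close paralogs set side by side differed in their counts. DDX39B had 69 sites and DDX39A 5. DDX21 had 18 sites, while DDX50, its nearest relative, which lies on the same strand 9322 nt away, had 0 in 45.5 kb. Neither difference has a replicate check, and how reads that match several places were treated is not given in the sources used here.

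Relatives outside the 41 genes also ranged from many sites to 0. Of 22 further helicase genes, chosen as relatives by name or role, 11 had a site and 5 had 10 or more. Among all protein-coding genes these shares were 23.0% and 4.55%. DDX17 had 163 sites, DDX5 had 57, and the translation initiation factors EIF4A1 and EIF4A2 had 43 and 23. Among spliceosomal enzymes SNRNP200, which unwinds U4 from U6, had 21 sites and DDX46 had 8. DDX23, a helicase of the tri-snRNP, had 3, while AQR had 0 in 117961 nt. EIF4A3, of the exon junction complex, had 9, DDX11 had 8, YTHDC2 of the germ line had 3 and MTREX had 2. The genes with 0 were otherwise DDX4, DDX25, DDX43, DDX53 and TDRD9 of the germ line, DDX60, DDX60L, RIGI and DHX58 of antiviral defence, and DQX1.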

How the data were processed

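Sites of USP39 iCLIP2 in HEK293T cells were read from the authors' merged BED list, whose deposited score is 0 for every site. Positions, in the authors' unit of bases on GRCh38, are printed with the first base counted as 1. STAR 2.7.3a, UMI-tools 1.1.2, SAMtools 1.10, bedtools 2.29.2 and FastQC 0.11.9 are named without roles, per the submitters' processing notes, with GRCh38.p12. How sites were called and filtered, and how multiply mapped reads were treated, is not given in the sources used here. Gene spans, without exons, came from a RefSeq table of GRCh38.p14, in which all 41 symbols matched. RefSeq promoter windows gave strands for 37 of the 41 genes and the printed sequences; where such windows of opposite strands overlapped, 2750 of 2750 pairs were reverse complements. A site in overlapping genes counted for each. Distances are between site centres. Genes with fewer than 3 sites were left out of the position shares.

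Members, roles and lists were chosen with earlier results of these data known. Genes with 10 or more sites and the 3 with most sites of each role were named with values, as were genes with 0. No test was run, because the merged list has no value per library. A 95% Wilson interval is given for the share of all helicase genes with a site, and none for the shares by role. Alternatives were joining sites, other site minimums, overlap in place of centre, and leaving out genes. Procedures were tested on simulated data with pandas 2.3.3 and numpy 2.4.6 under Python 3.11.15; intervals used scipy 1.17.1 and plots matplotlib 3.10.9.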

Additional observations from a re-analysis of the deposited data

Results flagged for a closer look

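Small nucleolar RNA genes inside the helicase genes held 5 sites that were not counted for the helicases, a signal outside the comparisons above. In DDX39B, SNORD84 had 2 sites, centred 19 and 34 nt from its 5′ end, and SNORD117 had 1, centred 18 nt from its 5′ end. In DDX55, SNORA9B had 2, centred 67 and 78 nt from its 5′ end. Within 200 nt of these genes, outside them, lay 2 further sites at SNORD84, 2 at SNORD117 and 1 at SNORA9B. No control library was analysed, so they are not shown to exceed background.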

How the results depend on the processing

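No paired analysis was possible because the merged list has no value per library, and for the same reason no replicate could be left out. Of 33 results under alternative settings, 26 stayed within 1.5 times the count, or within the 95% Wilson interval of the share, which covers counting error only and takes sites of 1 gene as independent, and 7 did not. With at least 3 sites required, 15 of the 41 helicase genes counted in place of 25 (12.7% of all protein-coding genes did), 5 in place of 11 for ribosome biogenesis and 2 in place of 4 for other roles; the splicing helicases had 2 in place of 3. The last 5% of the gene held 8.73% of sites, against 15.1% over all protein-coding genes. A neighbour within 100 nt was present for 52.0%, against 48.3% over all protein-coding genes. Leaving out DDX3X gave 29.0% in the last 10%, and leaving out DDX39B gave 27.2% with a neighbour within 50 nt, both alternatives chosen after seeing the data. The number of helicase genes with a site did not change with overlap in place of the centre. Joining sites could not change that number, since a joined run still leaves a site in its gene. Those joined settings are among the 26 and carry no information. Unknown read depth limits every count, above all those of 1 to 3 sites.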

Other observations

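Sites just beyond the helicase genes were few. DDX49, for which neither a site nor the promoter table gave a strand, was left out. In the 5000 nt after the other spans, on the strand of the gene, lay 3 sites, all of them in another protein-coding gene and all after DHX33. In the 5000 nt before them lay 14, of which 12 were in another protein-coding gene. The other 2 lay before DDX39B and DDX56.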
